A study of Homo sapiens with 12 samples.

Results

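The genes of the signal recognition particle (SRP) and its receptor were examined in NCI-H295R cells, a human line of the adrenal cortex, under treatment with either of a pair of inhibitors of cortisol synthesis. The set held 10 of the 60662 genes in the deposited table and was taken by gene symbol. It comprised RN7SL1 and RN7SL2, which encode the 7SL RNA, the protein genes SRP9, SRP14, SRP19, SRP54, SRP68 and SRP72, and the receptor genes SRPRA and SRPRB. RN7SL1 and RN7SL2 were chosen by their share of the measured transcripts in CJ28 against VEH, so their values are given as a description, without a test. The 8 protein genes are the particle's and receptor's proteins, listed with earlier results of these data known, so their tests below are not independent of that choice.

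SRP is a complex of RNA and protein in the cytosol that binds the signal sequence of a nascent secretory or membrane protein as it leaves the ribosome. It brings the ribosome to the SRP receptor at the endoplasmic reticulum (ER), where the chain enters the Sec61 channel. The 7SL RNA is transcribed by RNA polymerase III and folds into an Alu domain, bound by the SRP9 and SRP14 heterodimer, and an S domain, bound by SRP19, SRP54, SRP68 and SRP72. The Alu domain slows elongation during targeting, while SRP54 binds the signal sequence. In a steroid-producing cell the ER membrane houses several of the enzymes that convert cholesterol to cortisol.

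NCI-H295R is a line derived from an adrenocortical carcinoma. Cultures at confluence spent 12 h without serum and then 24 h with vehicle (VEH, DMSO at 0.1%), with the benzimidazolylurea derivative CJ28 at 30 µM, or with metyrapone (MET) at 30 µM, which inhibits the last step of cortisol synthesis. RNA-seq of total RNA depleted of ribosomal RNA gave 4 samples per group, described as biological replicates, and the deposited values are TPM, shares of all transcripts on a fixed total, which correct for transcript length and keep no read number. The number of reads behind a gene's value cannot be recovered from them, so counting error is not given, and p-values rest on the spread between these samples of a single cell line.

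Of 8 adrenocortical markers, 7 had a mean TPM of at least 1, and the summed TPM of the list was 274 to 285 in VEH, 115 to 122 in CJ28 and 273 to 287 in MET. Against the sum, NR0B1 had a higher mean in CJ28 (5.81 TPM) than in VEH (2.94), while all the others of the list had lower means. Markers of adrenal medulla, fibroblasts, endothelium and leukocytes (14 genes in 4 lists) summed to at most 1.63 TPM per list in any sample, none had a mean TPM of at least 1, and 2 of the 14 genes were at 0 in all samples. The short Y RNA gene RNY3 was listed at 0 in 5 samples (MET-3, MET-4, CJ28-3, CJ28-1 and VEH-1), although it held 15812 to 23436 TPM in the other 7, and results that touch this are given with and without those samples.

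RN7SL1 and RN7SL2 are single-exon genes on chromosome 14 (GRCh38), RN7SL1 at 49586580 to 49586878 on the plus strand and RN7SL2 at 49862550 to 49862849 on the minus strand, 275.7 kb apart. In GENCODE release 44, RN7SL1 lay in introns of RPS29, a ribosomal protein gene on the opposite strand, and RN7SL2 overlapped exons of a long noncoding RNA on its own strand. In the deposited table the overlapping noncoding gene, AL627171.4, reached at most 0.81 TPM. The copies are near-identical, and their reads were divided between them by RSEM. The split between RN7SL1 and RN7SL2 is thus uncertain, and their sum is the safer measure.

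RN7SL1 and RN7SL2 were the genes with the highest mean TPM in VEH, ahead of RN7SK, the RNA that restrains the elongation factor P-TEFb. Together they held 32.7%, 30.2%, 31.6% and 29.7% of all TPM in VEH-1 to VEH-4, and 31.4%, 31.7%, 32.8% and 32.9% in MET-1 to MET-4. In CJ28-1 to CJ28-4 the sum was 37.7%, 36.9%, 38.2% and 36.0%. Every CJ28 sample lay above every VEH and MET sample, whereas MET and VEH overlapped. Groups without overlap were common, at 50.3% of genes tested for CJ28 against VEH on TPM over all genes. Group means were 31.0% ± 1.35 (SD, n = 4) for VEH, 37.2% ± 0.987 for CJ28 and 32.2% ± 0.748 for MET, so that the mean of CJ28 was 1.20 times that of VEH.

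**Figure D1:**
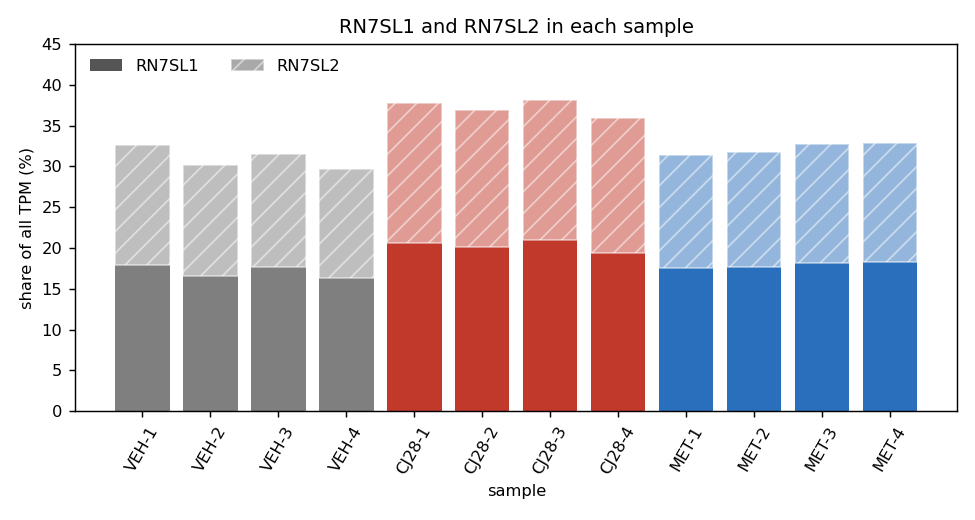
Share of all TPM (%, y axis) held by RN7SL1 (solid) and RN7SL2 (hatched) in each of the 12 samples (x axis; VEH grey, CJ28 red, MET blue). The stacked bars reach 36.0% to 38.2% in CJ28, above the 29.7% to 32.7% of VEH and the 31.4% to 32.9% of MET.

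Taken singly, RN7SL1 took up 17.1% ± 0.773 (SD, n = 4) under VEH, 20.3% ± 0.656 under CJ28 and 17.9% ± 0.346 under MET. RN7SL2 held 13.9% ± 0.623, 16.9% ± 0.338 and 14.3% ± 0.407. The order CJ28 above VEH and MET, without overlap, was seen for each copy (50.3% of genes tested did not overlap for CJ28 against VEH). The RN7SL1 part of the sum was 54.8% to 56.0% in VEH, 54.0% to 54.8% in CJ28 and 55.4% to 56.0% in MET.

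Other genes of the 7SL family were small beside these. RN7SL3, which lies 8.63 kb from RN7SL2, reached 370 ± 26.1 TPM with VEH, 435 ± 12.1 with CJ28 and 371 ± 16.7 with MET. The 677 genes named as RN7SL pseudogenes summed to 315 ± 5.60, 347 ± 17.1 and 313 ± 10.7 TPM, most of it from RN7SL4P (229 ± 7.10, 268 ± 9.95 and 226 ± 6.11 TPM). RN7SL1 and RN7SL2 made up 99.8% of the family total in each group mean. The CJ28 samples lay above the others for RN7SL3 and for the pseudogene sum (against VEH, 50.3% of genes tested did not overlap). As RSEM divides reads among near-identical genes, these values may hold reads of RN7SL1 and RN7SL2 and are no separate measurement.

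RN7SK, also transcribed by RNA polymerase III, accounted for 13.2% ± 0.494 of TPM with VEH and 13.1% with CJ28 (± 0.135) or MET (± 0.273), and its ranges overlapped. RPPH1, the RNA of ribonuclease P, lay between 3.14% and 3.61% in all samples, with overlap. RMRP, the RNA of ribonuclease MRP, overlapped between the groups in both of its entries, with means of 18956 (VEH), 19602 (CJ28) and 19336 TPM (MET) in the ribozyme entry and of 2659, 2728 and 3285 TPM in the other. BCYRN1, a brain cytoplasmic RNA of Alu origin, had 125 ± 7.88, 97.5 ± 14.7 and 123 ± 7.12 TPM in the same order. Its single samples overlapped, but BCYRN1 was called lower in CJ28 against VEH (log2 fold change -0.37, adjusted p = 0.00305 in limma) and against MET (-0.34, adjusted p = 0.00485). The other RMRP entry was called lower in CJ28 against MET (-0.26, adjusted p = 0.0183 in limma). On this scale 37.1% of all genes tested were called lower in CJ28 against VEH and 34.6% against MET. The structural RNAs had been meant for description without a test, so these calls are an addition. RNY1 had 758 ± 81.6, 693 ± 123 and 966 ± 102 TPM, MET lying above both other groups, and RNY4 and the 4 vault RNA genes were listed at 0 in every sample. The ratio of RN7SL1 and RN7SL2 to RN7SK, which does not depend on other transcripts, was 2.35 ± 0.0396 with VEH, 2.83 ± 0.0577 with CJ28 and 2.45 ± 0.0108 with MET. For this ratio CJ28 lay above both other groups and MET (2.44 to 2.46) above VEH (2.31 to 2.40), although the 7SL share itself overlapped between MET and VEH. On coding TPM, described below, 1.3% of genes tested had all MET samples above all VEH samples. No such share is given here for TPM over all genes or for ratios. The MET separations of RNY1 and of this ratio were not tested.

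TPM is a share, so the larger share of 7SL RNA came with smaller shares elsewhere. Nuclear protein-coding genes made up 24.6% ± 0.229 (VEH), 21.3% ± 0.0307 (CJ28) and 24.3% ± 0.223 (MET). Genes of the mitochondrial genome made up 13.3% to 15.1% with VEH and 10.9% to 12.3% with CJ28, and MET (at most 13.1%) lay between them. All remaining genes together held 30.4% ± 0.630, 30.1% ± 0.476 and 30.4% ± 0.635. Per unit of nuclear protein-coding TPM, the 7SL sum was 1.26 ± 0.0666, 1.74 ± 0.0463 and 1.32 ± 0.0398 for VEH, CJ28 and MET. More 7SL RNA per cell and less mRNA per cell cannot be told apart in such data, nor can fewer cells of a type and less RNA per cell. The RNY3 zeros moved with the 7SL share inside each group: the samples with RNY3 at 0 had 32.7% (VEH), 37.7% and 38.2% (CJ28) and 32.8% and 32.9% (MET), and the others 29.7% to 31.6%, 36.0% to 36.9% and 31.4% to 31.7%. With RNY3 taken out of the total, CJ28 held 36.5% to 38.2%, VEH 30.3% to 32.7% and MET 32.1% to 32.9%. The samples with RNY3 at 0 remained the highest of their group (VEH 32.7%, CJ28 37.7% to 38.2%, MET 32.8% to 32.9%). The others then had 30.3% to 32.2% (VEH), 36.5% to 37.5% (CJ28) and 32.1% to 32.3% (MET), and the cause was not tested.

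For the protein genes 2 scales were used, since TPM is a share and nuclear protein-coding genes together held a smaller share in CJ28. On the first, log2(TPM + 0.1) was fitted with limma over the 16815 genes with at least 0.5 TPM in at least 4 samples. On the second, TPM was rescaled so that nuclear protein-coding genes made up the whole (coding TPM), with 14485 genes passing the same filter. All 8 protein genes passed both filters. Called means an adjusted p under 0.05 over all genes tested, and fold changes on these scales slightly understate true changes because of the pseudocount. For CJ28 against VEH, 57% of genes were called on TPM (19.9% higher, 37.1% lower) and 59.9% on coding TPM (35.3% higher, 24.7% lower), with medians over all tested genes of -0.13 and 0.08 on the log2 scale. Beside this, 8 of 8 members were called on coding TPM, with 6 higher and 2 lower in CJ28, and their median log2 fold change was 0.51. With all genes in the denominator 7 of 8 were called, 5 higher and 2 lower, with a median of 0.31. The lower ones were SRP9 and SRP14 on both scales, the proteins of the Alu domain.

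SRP9 (ENSG00000143742.13, chromosome 1, 225777813 to 225790468, plus strand) had 567, 573, 586 and 565 coding TPM in the VEH samples and 452, 422, 444 and 412 in the CJ28 samples. In MET it had 588, 584, 562 and 544. All CJ28 samples lay below all others. SRP9 fell in CJ28 by 0.40 on the log2 scale (standard error 0.035, adjusted p = 1.76e-07 in limma), and on TPM over all genes by 0.61 (standard error 0.0377, adjusted p = 3.29e-08), from 141 ± 2.38 to 92.2 ± 4.02 TPM (SD, n = 4).

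SRP14 (ENSG00000140319.11, chromosome 15, 40035690 to 40039181, minus strand), the partner of SRP9 on the Alu domain, was less even between samples. It had 559, 569, 569 and 635 coding TPM in VEH, 497, 512, 428 and 593 in CJ28, and 541, 560, 591 and 524 in MET. The groups overlapped, because CJ28-4 lay above 3 of the VEH samples. SRP14 fell in CJ28 relative to VEH by 0.21 on the log2 scale of coding TPM (standard error 0.0761, adjusted p = 0.029 in limma), and over 21 alternatives the adjusted p ranged from 0.00153 to 0.262. The call was lost without VEH-4 (adjusted p = 0.0911 in limma), without CJ28-1 (0.0588), without CJ28-3 (log2 fold change -0.13, adjusted p = 0.0925), without variance moderation (0.0782) and without the 5 samples with RNY3 at 0 (log2 fold change -0.10, adjusted p = 0.262). With all genes in the denominator the groups did not overlap (50.3% of genes tested), with 136, 141, 139 and 158 TPM in VEH and 106, 109, 91.1 and 126 in CJ28, and the log2 fold change of -0.41 (adjusted p = 9.15e-04 in limma) was called under all 22 alternatives, where it ranged from -0.49 to -0.26.

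SRP72 and SRP68 form a heterodimer on the S domain. SRP72 (ENSG00000174780.17, chromosome 4, 56467617 to 56503681, plus strand) had 118, 129, 125 and 129 coding TPM in VEH, 182, 197, 195 and 207 in CJ28 and 118, 125, 130 and 126 in MET. CJ28 stood clear of both other groups, and SRP72 rose by 0.64 on the log2 scale relative to VEH (standard error 0.0455, adjusted p = 2.19e-08 in limma). SRP68 (ENSG00000167881.15, chromosome 17, 76038775 to 76072517, minus strand) had 47.4, 54.3, 51.5 and 59.3 coding TPM in VEH, 69.0, 64.7, 62.4 and 73.6 in CJ28 and 50.5, 47.8, 47.9 and 47.1 in MET. Its CJ28 samples were again the highest, and it rose by 0.35 on the log2 scale (standard error 0.0681, adjusted p = 5.1e-04). For SRP68 the scale decided the call: on TPM over all genes CJ28 and VEH overlapped (13.3 to 15.7 against 11.5 to 14.7 TPM), and the log2 fold change of 0.14 had an adjusted p of 0.119 in limma. Over 22 alternatives on that scale the adjusted p ranged from 0.00146 to 0.328, and 3 gave a call, among them leaving out VEH-4 (log2 fold change 0.20, adjusted p = 0.0267).

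SRP54, the GTPase that binds the signal sequence, and SRP19, which prepares the S domain for SRP54, were also higher in CJ28. SRP54 (ENSG00000100883.12, chromosome 14, 34981957 to 35029567, plus strand) had 121, 114, 115 and 113 coding TPM in VEH, 155, 158, 168 and 161 in CJ28 and 122, 124, 122 and 130 in MET. No CJ28 sample overlapped with the other groups, and SRP54 rose by 0.47 on the log2 scale relative to VEH (standard error 0.0381, adjusted p = 8.3e-08 in limma). SRP19 (ENSG00000153037.15, chromosome 5, 112861188 to 112898371, plus strand) had 238, 259, 228 and 224 coding TPM in VEH, 352, 342, 380 and 323 in CJ28 and 244, 258, 238 and 220 in MET. The CJ28 samples were again separate, and SRP19 rose by 0.56 (standard error 0.0589, adjusted p = 1.41e-06). Over all genes the changes in TPM were 0.27 for SRP54 and 0.35 for SRP19, called with adjusted p of 3.83e-05 and 4.65e-04 in limma, and that of SRP72 was 0.43 (adjusted p = 6.31e-06).

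The SRP receptor consists of SRPRA, a GTPase that pairs with SRP54, and SRPRB, a membrane-bound GTPase that anchors it. SRPRA (ENSG00000182934.12, chromosome 11, 126262938 to 126269144, minus strand) had 126, 117, 124 and 121 coding TPM in VEH, 185, 187, 181 and 184 in CJ28 and 123, 121, 119 and 129 in MET. SRPRB (ENSG00000144867.12, chromosome 3, 133784023 to 133825772, plus strand) had 60.8, 69.5, 63.3 and 60.9 in VEH, 105, 93.2, 103 and 94.6 in CJ28 and 69.7, 66.5, 62.1 and 61.6 in MET. For both genes all CJ28 samples lay above all others. On the log2 scale SRPRA rose by 0.60 relative to VEH (standard error 0.0356, adjusted p = 3.03e-09 in limma) and SRPRB by 0.64 (standard error 0.0593, adjusted p = 3.87e-07). Over all genes the rises were 0.39 and 0.43, both called (adjusted p = 6.15e-07 and 7.74e-05). Groups that do not overlap were common in this comparison (53% of genes tested on coding TPM, and 54.4% for CJ28 against MET).

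**Figure D2:**
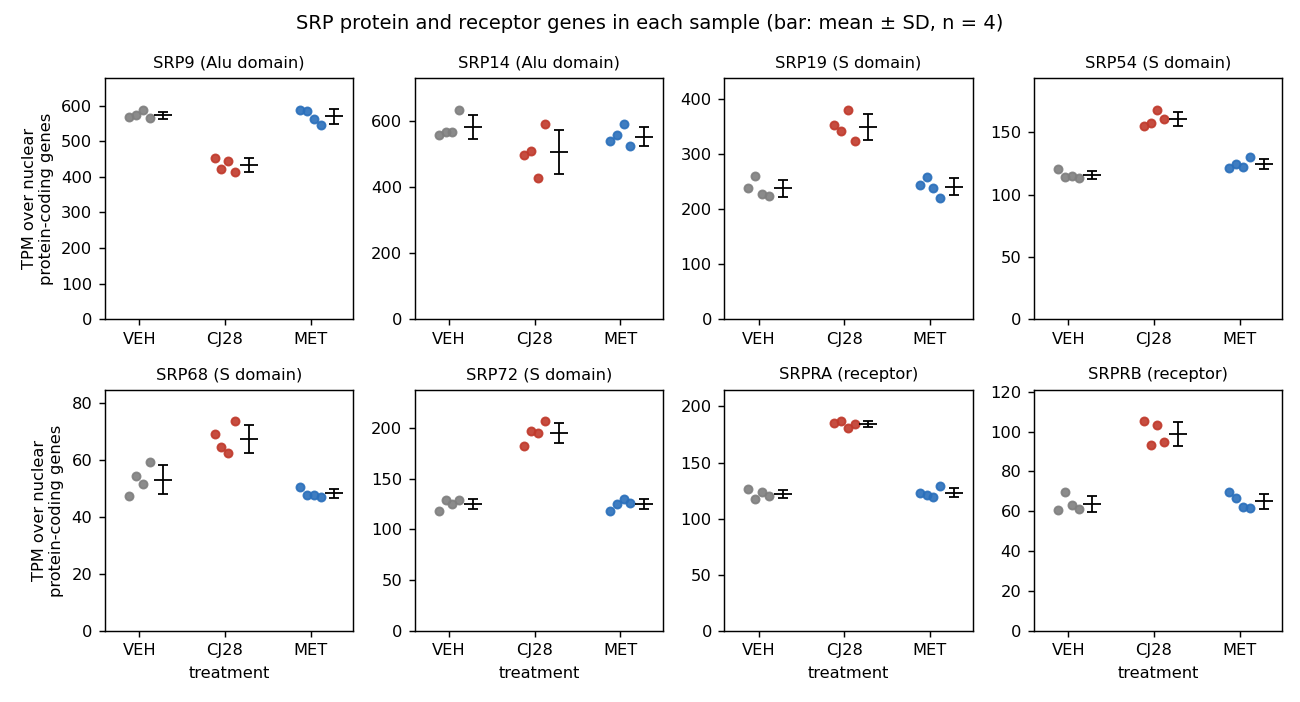
Coding TPM (y axis, from 0) of the 8 protein genes in each sample of VEH, CJ28 and MET (x axis), with the mean and SD of 4 samples as bars. SRP9 is lower in CJ28 (412 to 452 against 565 to 586 in VEH), SRP14 overlaps, and the other 6 genes are higher in CJ28 than in every VEH sample.

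**Figure D3:**
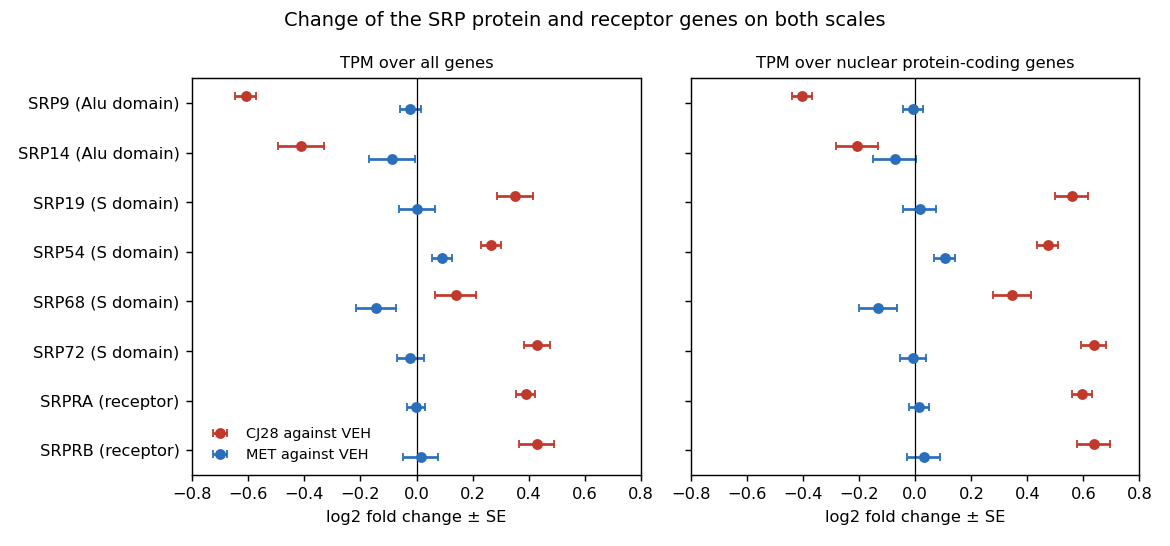
Log2 fold changes (x axis, bars are standard errors of the limma fit) of the 8 protein genes (y axis) for CJ28 (red) and MET (blue) against VEH, on TPM over all genes (left) and coding TPM (right). In CJ28, SRP9 and SRP14 lie left of 0 on both scales (SRP9 at -0.61 and -0.40) and the other 6 right of it, while the MET values lie between -0.15 and 0.10.

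Ratios within a sample do not depend on the scale, and they show unequal change without saying which side rose or fell. The summed TPM of SRP9 and SRP14 over that of SRP19, SRP54, SRP68 and SRP72 was 2.15, 2.05, 2.22 and 2.28 in VEH, 1.25, 1.23, 1.08 and 1.31 in CJ28, and 2.11, 2.06, 2.15 and 2.04 in MET. CJ28 was thus apart from both other groups (means 2.18 ± 0.102, 1.22 ± 0.0979 and 2.09 ± 0.0481). SRP9 over SRP72 was 4.57 ± 0.194 with VEH, 2.23 ± 0.206 with CJ28 and 4.57 ± 0.319 with MET. In CJ28, SRP9 had the lowest log2 fold change of the protein genes and SRP72 was among the highest, so this ratio restates those changes. Within the Alu pair, SRP9 over SRP14 overlapped between all groups (0.889 to 1.03 in VEH, 0.696 to 1.04 in CJ28, 0.951 to 1.09 in MET), and so did SRPRA over SRPRB (1.69 to 2.07, 1.75 to 2.00 and 1.76 to 2.09). SRP72 over SRP68 was 2.17 to 2.50 in VEH and 2.64 to 3.12 in CJ28, without overlap, and 2.34 to 2.71 in MET.

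**Figure D4:**
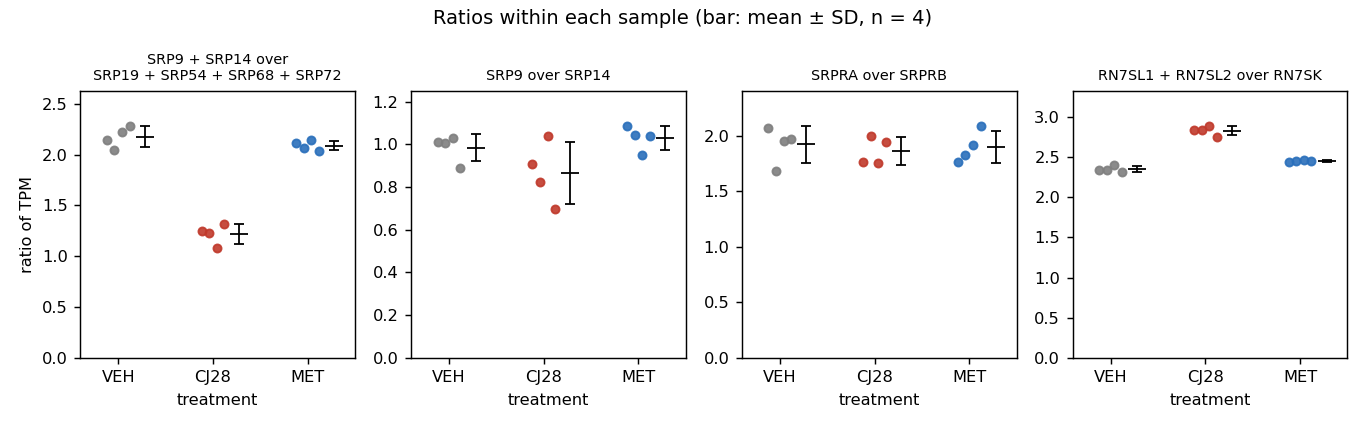
Ratios of TPM within each sample (y axis, from 0) for VEH, CJ28 and MET (x axis), with the mean and SD of 4 samples. The ratio of Alu-domain to S-domain protein genes is 1.08 to 1.31 in CJ28 against 2.05 to 2.28 in VEH, the ratios inside the SRP9 and SRP14 pair and inside the receptor overlap, and 7SL RNA over RN7SK is 2.75 to 2.89 in CJ28 against 2.31 to 2.40 in VEH.

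The particle's genes spanned a wide range of levels. In VEH the order by mean coding TPM was SRP14 (583 ± 35.2), SRP9 (573 ± 9.74), SRP19 (237 ± 15.7), SRP72 (125 ± 5.04), SRPRA (122 ± 3.83), SRP54 (116 ± 3.54), SRPRB (63.7 ± 4.09) and SRP68 (53.1 ± 5.03). SRP14 and SRP9 overlapped, and so did SRP72 with SRPRA and SRPRA with SRP54, while the other neighbours in the order did not. The order in CJ28 was the same, but SRP9 (433 ± 18.6) and SRP19 (349 ± 23.5) had come closer. For the 7SL RNA, summed TPM was 749 ± 53.7 times that of the 6 SRP protein genes in VEH, 1020 ± 48.5 times in CJ28 and 797 ± 40.3 times in MET. The size of these ratios is loose, since the TPM of an RNA about as short as a sequenced fragment depends on the fragment lengths assumed, which are not given in the sources used here.

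For MET against VEH, none of the 8 protein genes was called in limma on either scale (0.00595% of all genes called on TPM, 0.0138% on coding TPM), and 1 of 8, SRP54, had an unadjusted p under 0.05 (5.2% and 4.68% of all genes). SRP54 had a log2 fold change of 0.10 on coding TPM (95% confidence interval 0.0231 to 0.187, unadjusted p = 0.0156, adjusted p = 0.984 in limma). Its MET samples lay just above its VEH samples on that scale, as did 1.3% of all genes (2.96% did not overlap in either direction), and overlapped them on TPM over all genes. The other 7 genes had log2 fold changes from -0.13 (SRP68) to 0.03 (SRPRB). The 95% confidence intervals on coding TPM ran from -0.0838 to 0.0663 for SRP9, from -0.237 to 0.0898 for SRP14 and from -0.0632 to 0.0895 for SRPRA. The changes seen in CJ28 lay outside the intervals of SRP9 and SRPRA. The interval of SRP14 held its CJ28 change (-0.21), so a change of that size under MET is not excluded.

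CJ28 and MET were given at the same dose and time, and for CJ28 against MET 7 of 8 protein genes were called on coding TPM (60% of all genes, 36.4% higher and 23.7% lower), 6 higher and SRP9 lower. With all genes in the denominator 8 of 8 were called (55.5% of all genes, 20.9% higher and 34.6% lower), 6 higher and 2 lower. This comparison shares the CJ28 samples with that against VEH, and the comparisons against VEH share the VEH samples. The log2 fold changes on coding TPM were -0.40 for SRP9, 0.64 for SRP72, 0.61 for SRPRB, 0.58 for SRPRA, 0.54 for SRP19, 0.48 for SRP68 and 0.37 for SRP54 (largest adjusted p = 2.82e-05 in limma, that of SRP68). For SRP14 it was -0.13 (adjusted p = 0.143 in limma; 0.0106 to 0.989 over 21 alternatives). Without CJ28-4 SRP14 was called on coding TPM (log2 fold change -0.21, adjusted p = 0.0106), and without the 5 samples with RNY3 at 0 its value was 0.00165 (adjusted p = 0.989). With all genes in the denominator, leaving out the 5 samples with RNY3 at 0 lost the calls of SRP14 (log2 fold change -0.20 in place of -0.33, adjusted p = 0.103; range over 22 alternatives 4.41e-04 to 0.103) and SRP19 (0.21 in place of 0.35, adjusted p = 0.0764; range 6.3e-05 to 0.0764).

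Beyond the receptor, the nascent chain passes the Sec61 channel with its partners, and the signal peptidase cuts its signal sequence. Of 17 such genes, 10 were higher, 3 lower and 4 not called for CJ28 against VEH on coding TPM (median log2 fold change 0.31), and 8, 5 and 4 on TPM over all genes (median 0.11). Among all genes tested, 35.3% were higher and 24.7% lower on coding TPM, and 19.9% and 37.1% on TPM. SEC11C, a catalytic subunit of signal peptidase, rose from 137 ± 4.38 to 245 ± 14.9 coding TPM (SD, n = 4), a log2 fold change of 0.84 (adjusted p = 8.86e-10 in limma). SSR3, of the translocon-associated complex, rose from 144 ± 6.57 to 250 ± 16.1 (0.79), and SEC61A1, the pore subunit, from 260 ± 8.20 to 381 ± 6.37 (0.55). SEC11A, the alternative catalytic subunit of signal peptidase, was lower (log2 fold change -0.18, adjusted p = 9.34e-04). For MET against VEH 0 of 17 were called in limma, and 1 (coding TPM) or 0 (TPM) had an unadjusted p under 0.05.

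The oligosaccharyltransferase adds N-glycans to chains that enter the ER. Of its 12 genes, 8 were higher, 2 lower and 2 not called in CJ28 on coding TPM (median 0.18), and 5, 2 and 5 on TPM over all genes (median -0.03). The shares among all genes tested were 35.3% higher and 24.7% lower on coding TPM, and 19.9% and 37.1% on TPM. The catalytic subunit STT3A rose from 237 ± 2.86 to 358 ± 5.97 coding TPM (log2 fold change 0.60), the subunit RPN1 from 290 ± 7.26 to 437 ± 4.60 (0.59) and OSTC from 172 ± 7.71 to 229 ± 5.53 (0.42), the largest adjusted p of the 3 being 2.47e-07 in limma. OST4 (-0.30) and TUSC3 (-0.20) were the lower ones.

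Routes to the ER that do not use SRP, with the tail-anchor pathway, had 8 genes listed, of which 4 were higher, 1 lower and 3 not called in CJ28 on coding TPM (median 0.15) and 2, 3 and 3 on TPM over all genes (median -0.06). Calls were about as common among all genes tested (59.9% on coding TPM, 57% on TPM). TMEM208, of the SND route, rose from 77.0 ± 6.20 to 114 ± 7.09 coding TPM (log2 fold change 0.57, adjusted p = 2.1e-06 in limma), CAMLG, a receptor for tail-anchored proteins, from 46.4 ± 4.70 to 65.0 ± 3.10 (0.49) and UBL4A from 70.7 ± 6.63 to 81.5 ± 2.28 (0.21, adjusted p = 0.0106). The nascent polypeptide-associated complex, which shares the ribosomal exit site with SRP, consists of NACA and BTF3. On coding TPM NACA rose from 1510 ± 52.9 to 2391 ± 133 (log2 fold change 0.66, adjusted p = 1.99e-09 in limma) and BTF3 from 936 ± 18.5 to 1002 ± 24.5 (0.10, adjusted p = 0.00778). Over all genes NACA was higher (0.46) and BTF3 lower (-0.11).

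RNA polymerase III transcribes the 7SL genes with the factors TFIIIC and TFIIIB. Of 29 genes of the polymerase and its factors, 16 were higher, 6 lower and 7 not called in CJ28 on coding TPM (median 0.29), and 9, 9 and 11 on TPM over all genes (median 0.09). Beside this, 35.3% of all genes tested were higher and 24.7% lower on coding TPM, and 19.9% and 37.1% on TPM. SNAPC1, of the complex that serves RN7SK and U6 genes rather than 7SL, rose from 15.9 ± 0.728 to 31.7 ± 0.855 coding TPM (log2 fold change 1.00, adjusted p = 3.36e-09 in limma), the polymerase subunit POLR3C from 33.2 ± 1.77 to 64.4 ± 4.11 (0.95) and POLR3D to 25.1 ± 2.04 (0.95, adjusted p = 6.91e-06). Of the TFIIIC genes, GTF3C1 (-0.33), GTF3C5 (-0.43) and GTF3C6 (-0.47) were lower, GTF3C2 (0.18) and GTF3C3 (0.47) higher, and GTF3C4 was not called. BRF1 and BDP1, of TFIIIB, had log2 fold changes of 0.01 and -0.03 and were not called, TBP was higher (0.39), and MAF1, a repressor of the polymerase, was higher as well (0.36, adjusted p = 3.76e-05). Over all genes, GTF3C2 (-0.02), GTF3C3 (0.26) and TBP (0.18) were not called and GTF3C4 (-0.30) and BDP1 (-0.24) were lower. These TFIIIC, TFIIIB and MAF1 genes were singled out of the list after their values had been seen.

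A further list of 7 genes was drawn up around the handling of RNA polymerase III transcripts and the assembly of RNA with protein. A place in this list does not establish such a role for each gene, TRIM21 among them. Of the 7 genes, 4 were higher, 1 lower and 2 not called in CJ28 on coding TPM (median 0.17), and 1, 2 and 4 on TPM over all genes (median -0.03). Over all genes tested the shares were 35.3% higher and 24.7% lower on coding TPM, and 19.9% and 37.1% on TPM. TRIM21 went from 4.19 ± 0.487 to 6.44 ± 1.68 coding TPM (log2 fold change 0.58, adjusted p = 0.0138 in limma). SMN1, which has a near-identical copy with which it could share reads, went from 111 ± 4.27 to 165 ± 13.1 (0.58) and the export receptor XPO1 from 267 ± 11.1 to 321 ± 12.1 (0.27). TRIM21 and XPO1 were not called over all genes, and neither was UBL4A. None of these lists, with 8, 2, 12, 29 and 7 genes, had a call for MET against VEH in limma on either scale, and at most 2 genes of any of them had an unadjusted p under 0.05.

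**Figure D5:**
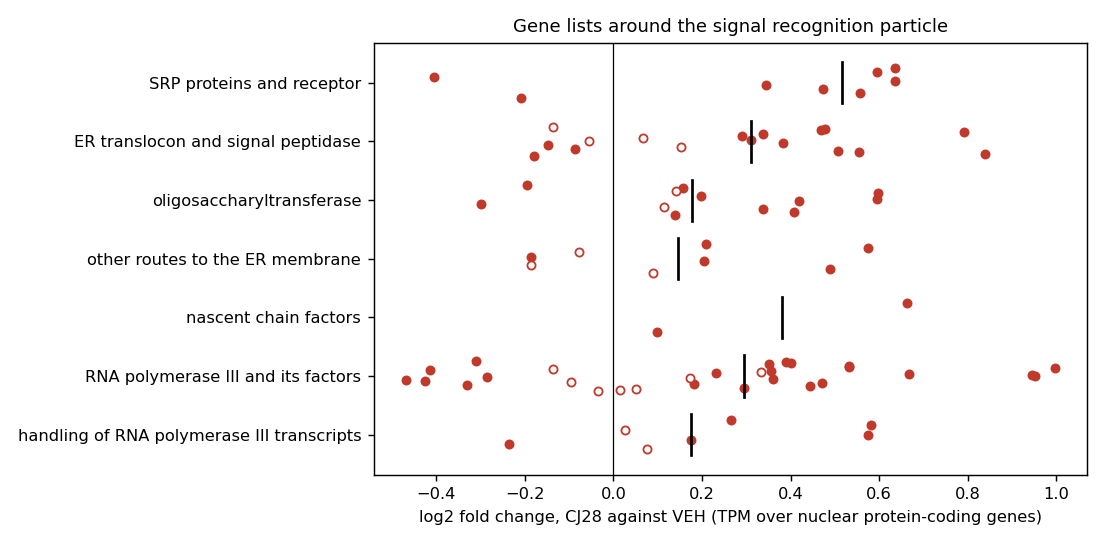
Log2 fold changes for CJ28 against VEH on coding TPM (x axis) of each gene in the lists named on the y axis. Filled points have an adjusted p under 0.05, open points do not, and the black bar is the list's median (0.51 for the SRP protein and receptor genes, 0.31 for the translocon list, against 0.08 over all genes tested).

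The genes whose TPM over the 12 samples was most like that of the 7SL sum were looked up among 13435 others with a mean TPM of at least 1. As likeness served the root mean square difference of log2(TPM + 0.1), each gene set to its VEH mean, and the sum itself deviated from its VEH mean by 0.16 on this measure. The nearest 5 were SSR4 (0.0326), a subunit of the translocon-associated complex, ATF4 (0.0399), a transcription factor of the integrated stress response, NANS (0.0409), an enzyme of sialic acid synthesis, APH1A (0.041), a subunit of gamma-secretase, and RN7SL3 (0.0477). SSR4 had 111 ± 4.71 TPM with VEH, 133 ± 2.50 with CJ28 and 115 ± 2.58 with MET, and ATF4 70.4 ± 2.62, 84.1 ± 2.39 and 71.4 ± 1.67. RN7SL3 may hold reads of RN7SL1 and RN7SL2. The ranking starts from the values by which RN7SL1 and RN7SL2 were chosen, and a link of these genes to 7SL RNA was not tested.

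The bases ahead of the 7SL genes are shown as the stretch in which the letters of the cyclic AMP response element, TGACGTCA, were searched, and capitals mark an exact match. Each run covers 100 bases up to the gene, read on its strand, at chr14:49586480-49586579 for RN7SL1 and chr14:49862850-49862949 for RN7SL2 (GRCh38).

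RN7SL1: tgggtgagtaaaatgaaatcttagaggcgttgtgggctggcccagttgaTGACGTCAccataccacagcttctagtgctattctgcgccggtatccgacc
RN7SL2: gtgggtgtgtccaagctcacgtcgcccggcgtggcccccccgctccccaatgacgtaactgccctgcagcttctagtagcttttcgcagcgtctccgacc

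The element starts 51 bases ahead of RN7SL1 and has no exact match in the RN7SL2 stretch, whose best match has 7 of 8 letters and starts 50 bases ahead of the gene. It is its own reverse complement, so both strands were covered. Over the window from 250 bases before to 50 after the start, 1.85% of 35116 promoters in the RefSeq table (GRCh38.p14) held these letters, and none of the windows found for the 7 protein genes in that table did (SRPRA had no entry). The starts in that table differ in places from the gene coordinates given above. Windows lay wholly inside those coordinates for SRPRB (chr3:133805565-133805864), SRP54 (chr14:34982742-34983041) and a further start of SRP68 (chr17:76053607-76053906). The letters CCAAT, searched on both strands, were in 34.6% of promoters. They were found in the windows of SRP9 (3 matches), SRP14 (2 matches in each of 2 windows), SRP54 (1 match, at the start site) and RN7SL2 (1 match), and not in those of SRP19, SRP68, SRP72, SRPRB and RN7SL1. Such matches describe letters only.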

How the data were processed

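RNA-seq of 12 NCI-H295R samples (4 each of VEH, CJ28 and MET) was used. The authors trimmed reads with Cutadapt (version 2.8), mapped them to GRCh38 with STAR (version 2.7.10b) and quantified genes with RSEM (version 1.3.3). The deposited TPM, to 2 decimals, sum to the same total in each sample, so no count model was fitted and the reads behind a value cannot be recovered. The library sizes stated by the study were not used here. RSEM divides reads among near-identical genes. The annotation release and the strand setting are not given in the sources used here.

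A linear model of log2(TPM + 0.1) was run in limma (R version 4.3.3, limma version 3.58.1; eBayes with a trend) on genes reaching 0.5 TPM in 4 or more samples, in one fit of 3 groups without covariates, on TPM over all genes and on TPM rescaled over the 19944 nuclear protein-coding genes. P-values are two-sided, with Benjamini-Hochberg adjustment over all genes tested. The fit was tested on simulated data. Values were handled in Python (version 3.11.15) with numpy (version 2.4.6), pandas (version 2.3.3) and matplotlib (version 3.10.9).

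The flanks of the 7SL genes were read from the GRCh38 genome at the deposited coordinates; the sequences of the RNAs are not reported here. Of the 10 members, 9 had both ends as in GENCODE release 44 (SRP54 differed at its end). Promoter windows of protein genes came from RefSeq (GRCh38.p14).

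The members and gene lists were chosen with earlier results of these data known. Named genes are the members, up to 3 genes per list with the largest change among those called on coding TPM, and the 5 genes most like the 7SL sum; other genes named from a list are said to be so or give its lower members. RNY5 of the list of structural RNAs was not analysed here. The alternatives changed the pseudocount (1 or 0.01), the filter (any TPM above 0, or a mean of 1 and more), the scaling (median-of-ratios factors, or no RN7SL1 and RN7SL2 in the denominator) and the model (a block for the replicate number, the compared groups only, unmoderated variances), or left out each sample. For the 7SL sum they were other denominators, group medians and the whole family. Leaving out the 5 samples with RNY3 at 0, and RNY3 itself, was added after the data had been seen.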

Additional observations from a re-analysis of the deposited data

Results flagged for a closer look

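In 57 groups of 4 samples, 2 had a sample whose distance to its nearest neighbour was large against the range of its group, and chance flags about 1 in 20 groups. SRP54 had 29.4 TPM in VEH-1, with 28.2 in the nearest sample, over all genes. SRP14 had 635 coding TPM in VEH-4, with 569 in the nearest sample. Without VEH-4 the SRP14 call for CJ28 against VEH on that scale was lost (adjusted p = 0.0911 in limma, 0.00153 to 0.262 over 21 alternatives).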

How the results depend on the processing

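The number of protein genes called stayed within 1.5 times that reported: 7 to 8 for CJ28 against VEH, 6 to 8 for CJ28 against MET and 0 for MET against VEH. A block for replicate number gave 7, 8 and 0 calls (coding TPM 8, 7 and 0), as without it, and samples sharing a number did not deviate together (correlations -0.124 to 0.0394), so they were not treated as paired. The log2 ratio of the 7SL sum, 0.26 for CJ28 against VEH and 0.21 against MET, became 0.413 and 0.331 with median-of-ratios factors and 0.467 and 0.400 per nuclear protein-coding TPM, and was 0.24 to 0.29 against VEH with single samples left out. Some alternatives lowered it: over all 16 the range was 0.22 to 0.467 against VEH and 0.182 to 0.400 against MET.

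Uncalled log2 fold changes near 0 changed sign for MET against VEH. Over all genes, median-of-ratios factors gave 0.00804 (SRP9), 0.00924 (SRP72) and 0.0299 (SRPRA). Without RN7SL1 and RN7SL2 in the denominator they were 0.00124, 0.00246 and 0.0231. Without the samples with RNY3 at 0, SRP9 had 0.0175 and SRPRA 0.00865. With single samples left out the ranges were -0.0384 to 0.0489 (SRP19), -0.0542 to 0.00365 (SRP72), -0.0222 to 0.0191 (SRPRA) and -0.0192 to 0.0618 (SRPRB). On coding TPM, median-of-ratios factors gave 0.00317 (SRP9) and 0.00439 (SRP72), and SRP9 had 0.0277 without the samples with RNY3 at 0. Ranges were -0.0245 to 0.0130 (SRP9), -0.0186 to 0.0599 (SRP19), -0.0351 to 0.0184 (SRP72), -0.00898 to 0.0293 (SRPRA) and -0.00462 to 0.0730 (SRPRB). SRP14 for CJ28 against MET turned to 0.00165 without the samples with RNY3 at 0. The causes were not tested. TPM keep no read number, so the counting error of low values cannot be given.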

Other observations

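Genes that resemble or overlap the members differed widely in level. The processed pseudogene SRP9P1, which could share reads with SRP9, had 2.77 ± 1.10 TPM with VEH, 1.03 ± 0.604 with CJ28 and 2.74 ± 0.851 with MET (SD, n = 4). Its highest CJ28 sample (1.91) lay just below its lowest VEH sample (1.93). SRP14-AS1, a long noncoding RNA named as antisense to SRP14, had 1.51 ± 0.205, 2.16 ± 0.358 and 1.48 ± 0.0949 TPM, with overlap between CJ28 and VEH (1.72 to 2.45 against 1.29 to 1.73). SRP54-AS1, on the strand opposite to SRP54, stayed at 0.84 TPM or less. The transferrin gene TF, which overlaps SRPRB on the same strand, reached at most 0.51 TPM. REEP5, which overlaps SRP19 on the other strand, had mean TPM of 17.1 in VEH, 16.1 in CJ28 and 16.3 in MET. RPS29, in whose introns RN7SL1 lies on the opposite strand, had mean TPM of 433 in VEH, 378 in CJ28 and 436 in MET. FAM118B and FOXRED1, which overlap SRPRA on the other strand, had mean TPM of 7.75 and 9.38 in CJ28.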
